A study of Homo sapiens with 4 samples.

Results

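Gene deserts are stretches of a chromosome with no protein-coding gene over a long distance, here autosomal intervals of 500 kb or more between neighbouring protein-coding gene spans of the GENCODE annotation on hg19. There were 636 such intervals among the 14930 autosomal intervals between protein-coding spans. The 30 with under 50% of their bases in the deposited segment blocks of both libraries were left out (these had 0.0224% to 45.7%), which left 606 deserts. Each desert is named by the 2 genes at its ends. The deserts spanned 721 Mb, and their 704 Mb of assayed bases made up 27.0% of the assayed autosomes. Their lengths ran from 500.1 kb to 4801 kb with a median of 907 kb. The samples are 2 ChIP-seq libraries (sequencing of immunoprecipitated chromatin) made with a Millipore antibody to macroH2A1, labelled as biological replicates, and 2 input libraries of chromatin that was not precipitated. All 4 come from formaldehyde-fixed IMR90 cells, an established line of human fetal lung fibroblasts, and the labels give no other genotype or treatment. With 1 cell line and 2 replicates, error here is the spread between these libraries, and a ChIP library holds no RNA level by which the cell type could be checked. The value of a desert is the length-weighted mean of the authors' log2 ratio of ChIP over input, so 0 is no enrichment over input, and its error is the standard deviation (SD) between the 2 ChIP replicates.

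MacroH2A1 is a histone H2A variant with a large C-terminal macro domain, and it lies in broad domains of chromatin that are often silent, the inactive X chromosome among them. Gene deserts are known as a mixed class. Some hold distant enhancers that act on a neighbouring developmental gene, and others are AT-rich, late replicating and attached to the nuclear lamina. A desert has long stretches of noncoding sequence and, at each end, the start or the end of a coding gene.

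Sequences from the highest and the lowest deserts by log2 ratio are shown so that the 2 ends of the range can be compared base by base. All are read from the hg19 reference genome, 240 bases each, 5′ to 3′, with CpG dinucleotides in capitals. The 6 are the desert bases directly before the start of a gene that begins at the desert, for the 3 highest and the 3 lowest deserts that have one, each on the strand of the gene.
DAAM1 edge of DACT1-DAAM1 (highest deserts), chr14:59655124-59655363, + strand: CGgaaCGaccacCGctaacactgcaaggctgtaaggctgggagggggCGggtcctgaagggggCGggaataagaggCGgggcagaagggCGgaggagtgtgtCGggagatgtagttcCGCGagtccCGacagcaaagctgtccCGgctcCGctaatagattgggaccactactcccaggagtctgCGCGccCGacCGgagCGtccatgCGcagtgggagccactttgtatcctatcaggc
LYZL1 edge of BAMBI-LYZL1 (highest deserts), chr10:29577750-29577989, + strand: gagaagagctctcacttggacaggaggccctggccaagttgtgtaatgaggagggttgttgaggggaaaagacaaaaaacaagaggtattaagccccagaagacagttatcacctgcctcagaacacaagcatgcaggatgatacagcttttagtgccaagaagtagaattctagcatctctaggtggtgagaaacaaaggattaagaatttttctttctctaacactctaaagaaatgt
ZNF32 edge of ZNF32-CXCL12 (highest deserts), chr10:44144330-44144569, - strand: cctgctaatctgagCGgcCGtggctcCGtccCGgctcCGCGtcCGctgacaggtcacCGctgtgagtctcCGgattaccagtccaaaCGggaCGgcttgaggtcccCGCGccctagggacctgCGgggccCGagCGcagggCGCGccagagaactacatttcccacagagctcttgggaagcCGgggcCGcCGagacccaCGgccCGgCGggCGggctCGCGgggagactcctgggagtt
ZC3H15 edge of FSIP2-ZC3H15 (lowest deserts), chr2:187350740-187350979, + strand: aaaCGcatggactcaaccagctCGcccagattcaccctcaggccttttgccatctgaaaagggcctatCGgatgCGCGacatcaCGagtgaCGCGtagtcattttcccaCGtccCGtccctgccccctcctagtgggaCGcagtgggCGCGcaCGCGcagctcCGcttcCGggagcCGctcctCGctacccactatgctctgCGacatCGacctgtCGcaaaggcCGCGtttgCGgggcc
DPP6 edge of ACTR3B-DPP6 (lowest deserts), chr7:153444978-153445217, + strand: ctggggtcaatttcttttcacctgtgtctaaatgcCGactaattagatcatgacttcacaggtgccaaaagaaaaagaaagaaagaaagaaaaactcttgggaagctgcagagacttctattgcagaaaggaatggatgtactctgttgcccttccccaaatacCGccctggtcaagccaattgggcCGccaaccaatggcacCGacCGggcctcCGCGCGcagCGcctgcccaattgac
CRBN edge of CRBN-SUMF1 (lowest deserts), chr3:3221412-3221651, - strand: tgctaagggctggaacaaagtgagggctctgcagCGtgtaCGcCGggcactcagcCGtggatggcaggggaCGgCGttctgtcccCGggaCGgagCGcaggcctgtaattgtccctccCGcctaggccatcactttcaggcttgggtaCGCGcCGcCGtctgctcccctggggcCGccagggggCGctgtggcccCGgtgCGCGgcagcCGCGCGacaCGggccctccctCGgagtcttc
The edges at DAAM1 and ZNF32 held 19 and 27 CpGs, and the LYZL1 edge 0, in the highest deserts. In the lowest deserts the ZC3H15, DPP6 and CRBN edges held 25, 9 and 24. CpG-dense gene starts thus stood at both ends of the ranking. The 25 kb of desert next to the DAAM1 start had log2 ratios of 1.13 and 1.01 in replicates 1 and 2, and those next to the ZC3H15 start had -1.17 and -1.87.

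Gene deserts did not share 1 level of macroH2A1. Over the 606 deserts the log2 ratio ran from -1.17 to 1.48 in replicate 1, with a median of -0.17, and from -1.44 to 1.40 in replicate 2, with a median of -0.27. It was above 0 in both replicates for 229 deserts (37.8%) and below 0 in both for 338 (55.8%), and 39 had opposite signs. As background, 21.8% of 5322 autosomal windows of 500 kb were above 0 in both replicates and 70.6% below. The same shares were 40% and 50.1% of 13889 shorter intervals between genes, and 20.8% and 71.8% of 18764 autosomal protein-coding genes. Deserts were above 0 more often than windows or genes, and about as often as shorter intervals of all lengths pooled. Of the shorter intervals, 10241 were under 50 kb, and 32.4% of these were above 0 in both replicates. The share was 62.4% at 50 to 100 kb, 63.4% at 100 to 250 kb and 53.1% at 250 to 500 kb. From 50 to 500 kb, each class of shorter intervals was thus above 0 more often than deserts. The shares of shorter intervals in the tails also pool all lengths. In the upper tail, 120 deserts (19.8%) lay over 0.5 in both replicates, against 6.41% of windows, 20.1% of shorter intervals and 9.23% of genes. The lower tail was thinner than in each of these: 161 deserts (26.6%) lay under -0.5 in both, against 38% of windows, 33.6% of shorter intervals and 57.8% of genes.

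The mean of the 2 replicates placed 195 deserts between -1.0 and -0.5, 164 between -0.5 and 0, 102 between 0 and 0.5, 115 between 0.5 and 1.0 and 29 between 1.0 and 1.5. Fewest of the deserts between -1.0 and 1.0 lay from 0 to 0.5, with more on either side. That bin held 16.8% of deserts and 17.6% of 500-kb windows, so its share was close to the background. From -1.0 to -0.5 the shares were 32.2% of deserts and 36.4% of windows, and from -0.5 to 0 they were 27.1% and 30.4%. Deserts were more frequent than windows from 0.5 to 1.0 (19.0% against 6.97%) and from 1.0 to 1.5 (4.79% against 0.996%). Covered share was also spread between low and high deserts. It is the percent of assayed bases in segments that are enriched in both replicates, meaning a log2 ratio above 0 and a −log10 p of at least 2. Of the deserts, 171 (28.2%) had a covered share of 0 and 100 (16.5%) one of 90% or more. These 2 shares were 26.9% and 4.23% among 500-kb windows, 55.2% and 20.3% among shorter intervals of all lengths, and 71.1% and 11.9% among genes.

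**Figure D1:**
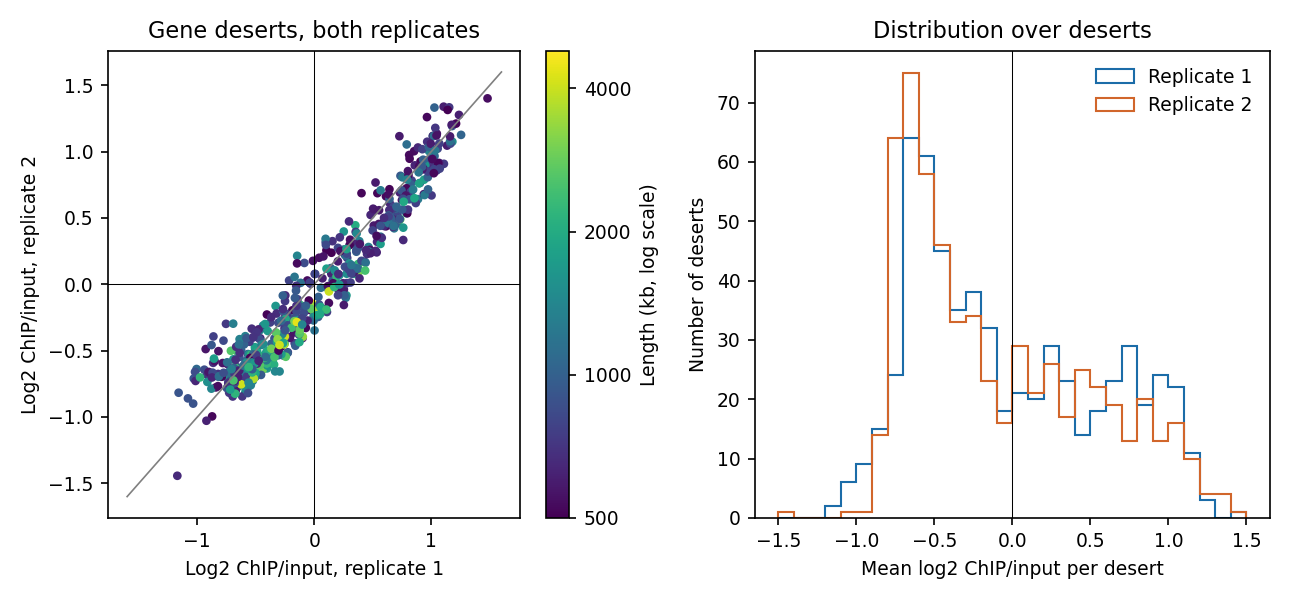
Left, the mean log2 ratio of ChIP over input of each of the 606 gene deserts in replicate 1 (x axis) and replicate 2 (y axis), coloured by length on a log scale, with the line of equality in grey. Right, the number of deserts per bin of log2 ratio in each replicate: the most deserts lie between -0.8 and -0.5, and a broad shoulder reaches past 1.0.

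The replicates ranked the deserts alike. Their log2 ratios correlated across the 606 deserts (Spearman rho 0.95, Pearson r 0.97). This is a description, since deserts share libraries and segments and are not independent. The SD between replicates had a median of 0.09 and reached 0.33. Replicate 1 was the higher one in 426 deserts (70.3%) and replicate 2 in 180. In the autosomal windows of 500 kb, replicate 1 was the higher one in 56.7%. The difference between replicates moved with base composition. Replicate 1 was higher in 308 of 315 deserts under 38% GC, in 112 of 207 deserts of 38 to 42% GC and in 6 of 84 deserts of 42% GC or more. Across deserts, replicate 1 minus replicate 2 had a Pearson r of -0.83 with GC content. In the 500-kb windows it was -0.76, where deserts are only a part of the bases, and its part in the results was not tested. The 5 deserts with the largest replicate difference were C8orf90-TSNARE1 (-0.86 and -0.39 in replicates 1 and 2, 54.1% GC), TEX29-SOX1 (-0.75 and -0.30), ADGRD1-SFSWAP (-0.93 and -0.49), TAFA5-BRD1 (-0.88 and -0.46) and AEBP2-PDE3A (0.76 and 0.33, 37.4% GC). None of these 5 changed sign.

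With protein-coding genes as neighbours, deserts as a class lay above the rest of the autosomes and below shorter intervals between genes. The length-weighted log2 ratio was -0.10 in replicate 1 and -0.19 in replicate 2 over desert bases, against -0.40 and -0.40 over all other autosomal bases. Deserts were higher than the rest by 0.25 ± 0.06 (SD, n = 2). This difference was 0.12 for deserts of 1000 kb or more, and 0.0031 where lncRNA (long noncoding RNA) genes also counted as neighbours, so it was lost under that definition of a desert. Protein-coding spans stood at -0.71 and -0.71, so deserts exceeded them by 0.56 ± 0.06. Shorter intervals between genes stood at 0.18 and 0.19, and deserts were lower by 0.33 ± 0.07 (difference -0.33). Each of these 3 differences had 1 direction in 2 of 2 replicates and was larger than the spread between them, but the exact sign-flip permutation test over 2 replicates (two-sided, n = 2) gives p = 0.5, the smallest it allows. The gap to shorter intervals was smaller without length weighting. Medians were -0.17 and -0.27 for deserts in replicates 1 and 2, against -0.14 and -0.12 for shorter intervals. Intervals under 50 kb had medians of -0.41 and -0.38, below those of deserts. The covered share did not follow the mean: 27.4% of desert bases were covered, close to the 27.7% of the rest of the autosomes and below the 48.1% of shorter intervals and above the 17.3% of protein-coding spans. On chromosome X, which the definition leaves out, the 40 intervals of 500 kb or more had medians of 0.48 and 0.17 in the 2 replicates, and 65% were above 0 in both.

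Length-weighted log2 ratios were lower in longer classes of deserts up to 3000 kb. Deserts of 500 to 750 kb had length-weighted log2 ratios of 0.08 and 0.04 in replicates 1 and 2 (215 deserts), those of 750 to 1000 kb 0.01 and -0.04 (126), those of 1000 to 2000 kb -0.13 and -0.21 (191), those of 2000 to 3000 kb -0.24 and -0.38 (49), and those of 3000 kb or more -0.24 and -0.42 (25). The median desert of 3000 kb or more was at -0.30 and -0.45, above that of 2000 to 3000 kb at -0.39 and -0.53, so the order of the 2 longest classes depends on the weighting. The share above 0 in both replicates was 48.4%, 42.1%, 31.9%, 18.4% and 8% in these classes, and the covered share 39.8%, 35.3%, 27.0%, 17.3% and 14.7%. Below the desert limit the order was not the same: intervals of 100 to 250 kb were the highest at 0.29 and 0.31, those of 250 to 500 kb stood at 0.16 and 0.15, and those under 50 kb at -0.05 and -0.02. The relation among deserts was weak for a single desert (Spearman rho of -0.23 with length over 606 deserts). Longer deserts also had less GC (rho of -0.45).

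**Figure D2:**
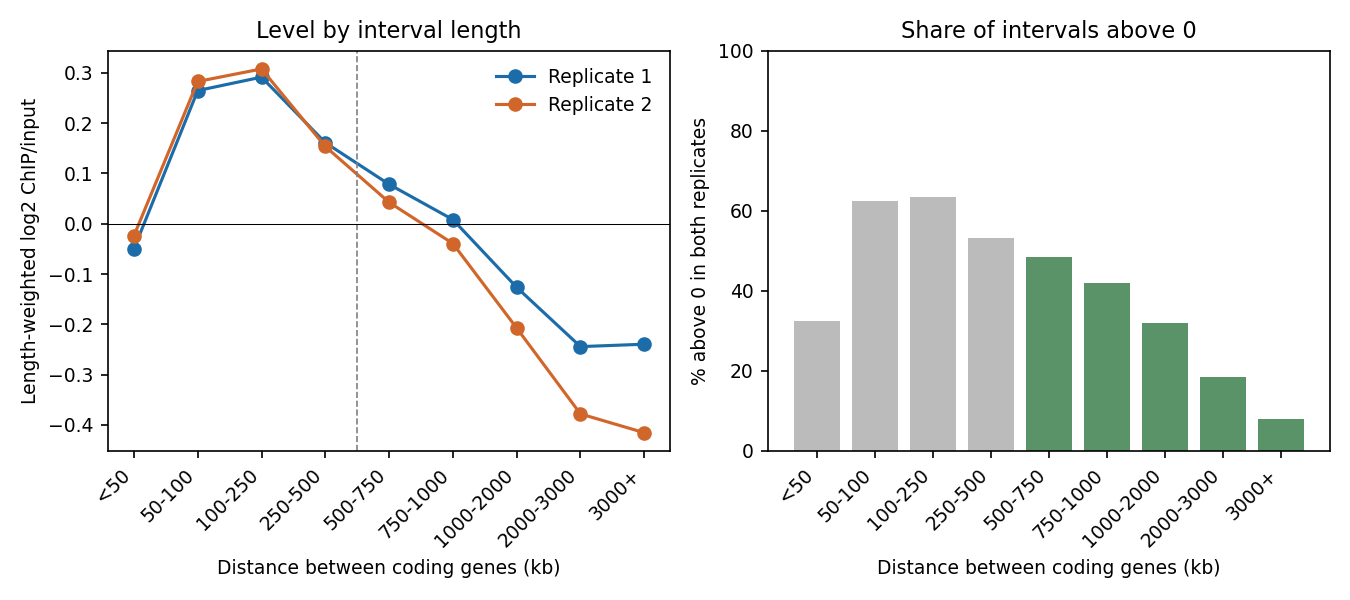
Left, the length-weighted log2 ratio of ChIP over input in each replicate for autosomal intervals between protein-coding genes, by length. Right, the percent of intervals above 0 in both replicates, with intervals under 500 kb in grey and deserts in green: the share is 63.4% at 100 to 250 kb and 8% at 3000 kb or more.

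Values just inside and just outside the length limit were as follows. The 3 shortest deserts were FOXL1-C16orf95 at 500.1 kb (1.14 and 1.31 in replicates 1 and 2), BMPER-NPSR1 at 502 kb (-0.05 and -0.12) and SEMA3A-SEMA3D at 503 kb (0.79 and 0.54). The 3 longest intervals outside the limit were MAP2K6-KCNJ16 at 499.6 kb (1.20 and 1.11), ALX1-RASSF9 at 499 kb (-0.22 and -0.35) and KCNRG-DLEU7 at 498 kb (0.59 and 0.49). High and low intervals stand on both sides of it.

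The 8 highest deserts were covered over nearly all of their length. DACT1-DAAM1 (chr14:59115040-59655363, 540.3 kb), between a regulator of Wnt signalling and a formin of planar cell polarity, had log2 ratios of 1.48 and 1.40 in replicates 1 and 2 and a covered share of 99.8%. BAMBI-LYZL1 (chr10:28971862-29577989), beside the decoy receptor of TGF-beta signals BAMBI, had 1.24 and 1.28. ZNF32-CXCL12 (chr10:44144330-44865612), beside the stromal chemokine CXCL12, had 1.15 and 1.33. These 3 had neighbouring genes at very different levels, from -0.71 for ZNF32 and 0.71 for CXCL12 to 1.23 for LYZL1 (mean of both replicates over the gene span). FOXL1-C16orf95 (chr16:86617085-87117167), beside a forkhead factor, had 1.14 and 1.31, and PITRM1-KLF6 (chr10:3215034-3818187), between a mitochondrial peptidase and a zinc finger transcription factor, had 1.11 and 1.34. FN1-MREG (chr2:216300797-216807306) starts at the fibronectin gene and had 1.21 and 1.21. TNC-PAPPA (chr9:117880487-118916069) lies between tenascin C and a metalloproteinase that cleaves IGF-binding proteins and had 1.26 and 1.13, and SGK1-ALDH8A1 (chr6:134639251-135238530), beside a serum-induced kinase, had 1.17 and 1.20. The covered share of these 8 was 96.8% to 100%. By the mean of both replicates, the neighbouring genes of these 8 ran from -2.65 for KLF6 to 1.23 for LYZL1. PITRM1 and FN1 stood at -2.27 and -1.85, far below the deserts next to them, and SGK1 and ALDH8A1 at 0.91 and 0.97. These genes were picked after their values were seen.

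The 8 lowest deserts had a covered share of 0. FSIP2-ZC3H15 (chr2:186698018-187350979, 653 kb), beside a gene of the sperm flagellum, had log2 ratios of -1.17 and -1.44 in replicates 1 and 2 and was the only desert with a mean under -1.0. GLRX3-TCERG1L (chr10:131982786-132890653) had -1.16 and -0.82, and TCERG1L-PPP2R2D on the other side of TCERG1L (chr10:133109985-133747954) had -1.01 and -0.73. DCC-MBD2 (chr18:51062270-51677975), between the netrin receptor DCC and a methyl-CpG binding protein, had -0.92 and -1.03. ICE1-MED10 (chr5:5490334-6371986), beside a Mediator subunit, had -1.08 and -0.86. ACTR3B-DPP6 (chr7:152552464-153445217) had -1.04 and -0.90, CRBN-SUMF1 (chr3:3221412-3742497), beside cereblon, had -0.87 and -0.996, and C1orf174-AJAP1 (chr1:3816858-4714668) had -1.03 and -0.71. In TCERG1L-PPP2R2D and C1orf174-AJAP1 the assayed share was 83.1% and 82.6%, below the median of 98.3%.

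The 10 longest deserts were low on average but not uniform. Of these, 8 were below 0 in both replicates and 2 had opposite signs, SEL1L-FLRT2 (0.13 and -0.05) and NUDT12-EFNA5 (0.02 and -0.23). The longest, PCDH7-ARAP2 (chr4:31148428-35949842, 4801 kb), beside a protocadherin gene, had -0.46 and -0.65 and a covered share of 1.84%. OLFM4-PRR20A (chr13:53626193-57715051) was the most even of the 10, at -0.62 and -0.75 with 0 covered, in 2 segments in each replicate. SEL1L-FLRT2 (chr14:82000198-85996487) was split into 34 and 14 segments and covered to 44.9%, and AGA-TENM3 (chr4:178363592-183065139) into 35 and 21 with 26.8% covered. The other 6 were CELF4-PIK3C3 (27.2% covered), CDH9-CDH6 (15.0%), NCAM2-MRPL39 (11.5%), IGFBP7-ADGRL3 (6.33%), C4orf33-PCDH10 (1.68%) and NUDT12-EFNA5, counted above, with 10.9%. In CDH9-CDH6, between 2 cadherin genes, the inner 80% stood at -0.46 and -0.57 in replicates 1 and 2 and the outer 10% on each side at 0.55 and 0.31. CELF4-PIK3C3 went the other way, with its inner 80% at -0.05 and -0.25 and its outer parts at -0.53 and -0.44.

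**Figure D3:**
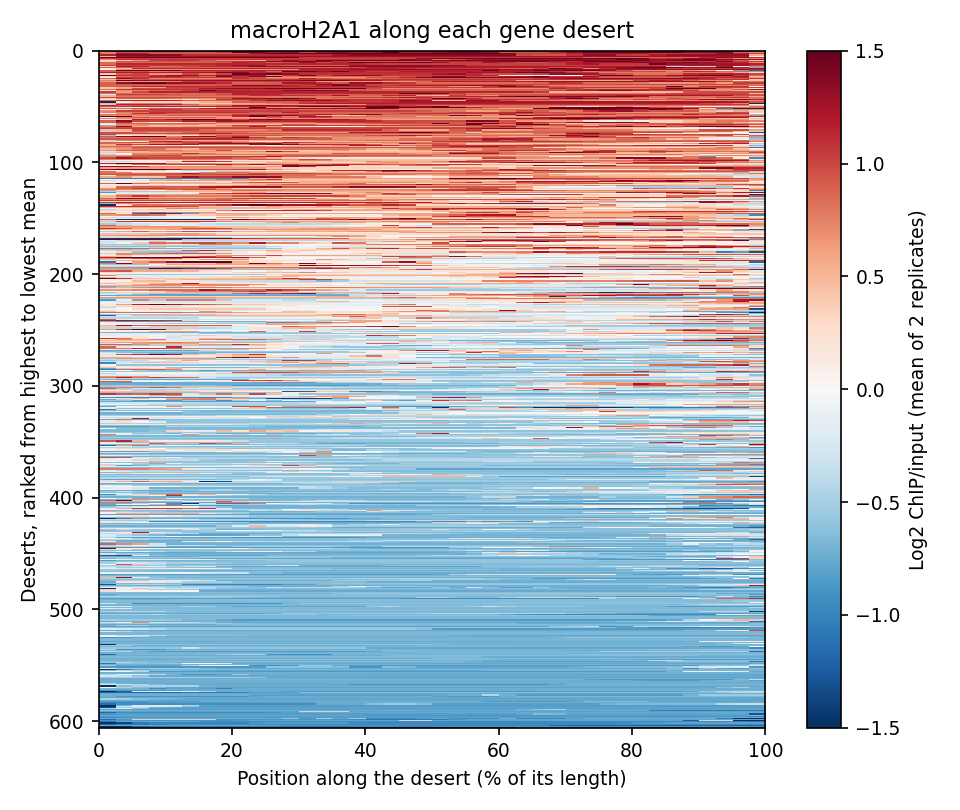
Each row is 1 of the 606 gene deserts, ranked by its mean log2 ratio, and the x axis is the position along the desert in percent of its length. Colour is the log2 ratio of ChIP over input averaged over the 2 replicates (red above 0, blue below, limits at -1.5 and 1.5). The top rows are mostly red, the bottom rows mostly blue, and the middle rows are mosaics. High rows are not all red throughout: IRF8-FOXF1, at rank 53, had outer parts at -0.45 and 0.10 in replicates 1 and 2.

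Deserts above 0 were more uneven inside than deserts below 0. The SD of the log2 ratio within a desert, weighted by length, had a median of 0.38 over the 229 deserts above 0 in both replicates and of 0.27 over the 338 below 0. In replicate 1 a desert was cut into a median of 8.5 segments, and in replicate 2 into 5. A single segment held the whole desert in 30 cases in replicate 1, in 51 in replicate 2 and in 22 in both, so that for these the value is that of 1 segment, which may reach beyond the desert. The 3 deserts with the largest SD within them were PLGLB1-PLGLB2 (1.12), BLID-UBASH3B (1.07) and MYC-GSDMC (1.03). PLGLB1-PLGLB2 lies between near-identical genes, had 59.0% of its bases in blocks, and its value rests on those. BLID-UBASH3B (chr11:121986924-122526429), which holds the long noncoding RNA gene MIR100HG, had an inner 80% at 0.54 and 0.65 in replicates 1 and 2 and outer parts at -0.63 and -0.90. MYC-GSDMC (chr8:128755198-130760441), downstream of the MYC oncogene, had an inner part at 0.55 and 0.60 and outer parts at -0.42 and -0.15.

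At the edge of a desert the log2 ratio changed over a short distance. Over 1212 edges the first 25 kb of desert had a mean of -0.06 and -0.15 in replicates 1 and 2, against -0.62 and -0.62 in the 25 kb on the side of the gene. The next 25 kb of desert had 0.05 and -0.02. From there the mean drifted to -0.04 and -0.09 at 225 to 250 kb. Deserts above 0 stood at 0.40 and 0.32 in the first 25 kb and at 0.67 and 0.59 at 225 to 250 kb, and their gene side at -0.46 and -0.44. Deserts below 0 stood at -0.39 and -0.47 and then at -0.53 and -0.56, and their gene side at -0.73 and -0.75. A segment can span the edge, so the 2 sides are not separate measurements. The gene side is a fixed distance, so beside a short gene it also takes in bases beyond that gene. At SOX2, 2.5 kb long, these bases belong to another desert. The desert side was thus above the gene side in both sets and both replicates, and in deserts above 0 the level kept up inward while in deserts below 0 it declined. These sets were split by the desert's own value, so their levels inside the desert are a description.

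**Figure D4:**
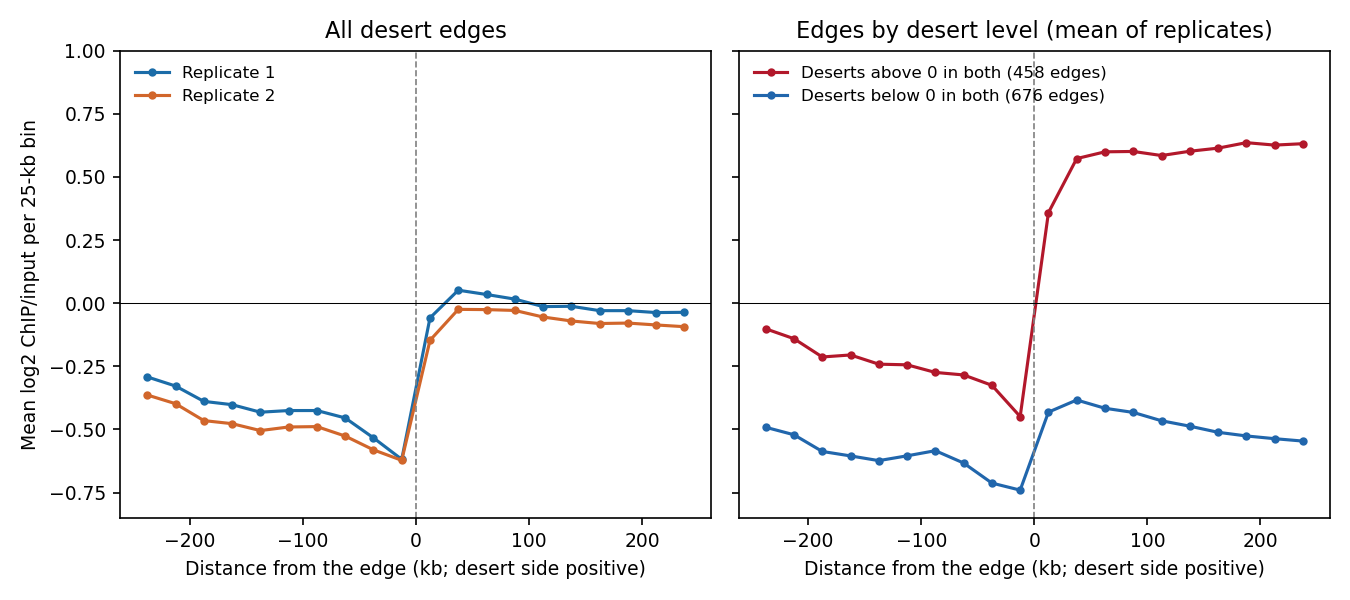
Mean log2 ratio of ChIP over input in bins of 25 kb by distance from the edge of a desert, with the gene side negative and the desert side positive. Left, all 1212 edges in each replicate. Right, the mean of both replicates for deserts above 0 in both replicates (458 edges) and below 0 in both (676 edges): next to the edge the first set has 0.36 on the desert side, against -0.45 on the gene side, and the second has -0.43, against -0.74.

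The first 25 kb of desert were higher beside a gene's start than beside a gene's end. Where the gene starts at the desert (618 edges), the first 25 kb of desert had a mean of 0.07 and -0.03 in replicates 1 and 2. Where the gene ends there (594 edges), it had -0.19 and -0.27. The gene side was alike, at -0.59 and -0.61 for starts and -0.65 and -0.63 for ends. Edges are not independent of one another, and no test was made. Over whole deserts the middle did not differ from the edges in a common direction. The inner 80% was above the outer 20% in both replicates in 236 deserts (38.9%) and below it in 265 (43.7%), and the median difference was 0 in either replicate. In intervals of 100 to 500 kb the middle was above the edges in 58.1% and below in 20.9%.

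Coding genes beside deserts above 0 and below 0 had close medians, but the genes above 0 were more often beside deserts above 0. The 606 deserts have 1082 distinct neighbouring genes, and both could be measured for 602 deserts. Neighbouring genes had a median log2 ratio of -0.61 beside deserts above 0 and -0.66 beside deserts below 0, where the median over all autosomal protein-coding genes was -0.90. Across deserts, the mean of the 2 neighbours had a Spearman rho of 0.16 with the desert. Of the 229 deserts above 0, 114 (49.8%) had no neighbouring gene above 0, 92 had 1 and 23 had 2. Of 334 deserts below 0 with both neighbours measured, 262 (78.4%) had none, 66 had 1 and 6 had 2. A segment can reach from a desert into the gene beside it, so the 2 values are not always separate measurements. For example, TLL1-SPOCK3 and its neighbour TLL1 both had -0.76 (mean of both replicates). No test was made of these shares. The desert was above both of its neighbours in 316 deserts (52.5%) and below both in 57 (9.47%). The same count is not given for shorter intervals, so it cannot be read as a trait of deserts alone. As a class, shorter intervals also lay above protein-coding spans, at 0.18 and 0.19 against -0.71 and -0.71 in replicates 1 and 2.

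Deserts on the 2 sides of 1 gene had the same sign more often than opposite signs. There were 130 such pairs: both deserts were above 0 in 24 pairs, both below in 67 and opposite in 26, and 13 pairs held a desert with opposite signs between replicates. Over all deserts, 37.8% were above 0 in both replicates and 55.8% below, so some pairs would match with no relation between their deserts. A segment can span the gene between 2 deserts, so the values of a pair are not always separate measurements. No test was made of the pairs. Consecutive deserts less than 250 kb apart had the same sign in 67.3% of 107 pairs, and consecutive deserts over 5 Mb apart in 51.7% of 118 pairs. HAS2, which encodes a hyaluronan synthase, has a desert on either side, SNTB1-HAS2 (1.16 and 1.06 in replicates 1 and 2) and HAS2-ZHX2 (1.16 and 1.08). The pair at KCNU1, a potassium channel gene, was the most unequal, with UNC5D-KCNU1 at -0.64 and KCNU1-ZNF703 at 1.06 (means of both replicates). These 2 examples were picked after their values were seen.

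Deserts were grouped by 4 lists of genes at their ends, and the lists are described by counts and medians with no test. Of 118 deserts beside genes for neural adhesion and synaptic receptors, 13 were above 0 in both replicates and 96 below, and their median was -0.43 and -0.54 in replicates 1 and 2, against -0.05 and -0.15 over the 488 other deserts. All deserts together were above 0 in 37.8%, and the others in 44.3%. CDH11-CDH5 (chr16:65160016-66400592), between the cadherins of mesenchyme and of endothelium, was the highest at 1.03 and 1.01, and SEMA3C-HGF, between a semaphorin and hepatocyte growth factor, had 1.07 and 0.87. DCC-MBD2, given above, and CSMD1-MCPH1 (-0.88 and -0.79) were the lowest. These deserts were also longer, with a median of 1501 kb against 838 kb, and lower in GC, at 36.1% against 38.4%. Within deserts of 500 to 1000 kb the median was -0.45 for 36 of them and 0.08 for 305 others. In deserts of 1000 to 2000 kb it was -0.55 for 40 and -0.32 for 151 others, and in those of 2000 kb or more -0.44 for 42 and -0.43 for 32 others.

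Deserts beside secreted growth factors and morphogens had a higher median than the others. Of 25, 15 (60%) were above 0 in both replicates and 8 below, where 36.8% of the 581 others were above. Their medians were 0.44 and 0.26 in replicates 1 and 2, against -0.21 and -0.29 over the 581 others. ZNF32-CXCL12 was the highest, followed by TGFB2-LYPLAL1 (chr1:218617962-219347210), beside the TGF-beta 2 gene, at 1.11 and 0.91. The lowest were NRG3-GHITM, beside a neuregulin gene, at -0.73 and -0.67, and FSTL5-NAF1 at -0.65 and -0.73. The median of 20 of these deserts of 500 to 1000 kb was 0.61, against -0.08 for 321 others, while the 4 of 1000 to 2000 kb had -0.56, against -0.38 for 187 others. The higher median of this list therefore rests on its shorter deserts.

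Deserts beside extracellular matrix genes fell into a high and a low set. Of 18, 10 (55.6%) were above 0 in both replicates and 8 below, where 37.2% of the 588 others were above. The medians were 0.40 and 0.38 in replicates 1 and 2, against -0.17 and -0.28 over the 588 others. By the mean of both replicates the 8 below 0 ran from -0.82 to -0.37, and SMOC2-THBS2 stood at 0.12 and the other 9 above 0 from 0.66 to 1.21. The high set had FN1-MREG, TNC-PAPPA, both deserts of HAS2, RASGRP1-THBS1 (0.98 and 1.04), beside thrombospondin 1, DCBLD2-COL8A1 (1.00 and 0.67), CD109-COL12A1 (0.94 and 0.67), ADAMTS5-N6AMT1 (0.86 and 0.65) and DCN-BTG1 (0.75 and 0.56), beside decorin. The low set had IRX1-ADAMTS16 (-0.91 and -0.74), TLL1-SPOCK3 (-0.71 and -0.80), COL22A1-KCNK9 (-0.86 and -0.59) and CDC14C-VWC2 (-0.77 and -0.68) at its bottom. Members other than the highest and lowest 2 were named after their values were seen. In deserts of 500 to 1000 kb the direction turned, with a median of -0.37 for 11 of these and -0.01 for 330 others, and in deserts of 1000 to 2000 kb it was 0.91 for 6 and -0.41 for 185 others.

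Deserts beside developmental transcription factor genes were above 0 about as often as the rest. Of 89, 37 were above 0 in both replicates and 47 below, or 41.6% above where 37.1% of the other 517 were. Their medians were -0.14 and -0.13 in replicates 1 and 2, against -0.21 and -0.31. FOXL1-C16orf95, given above, and IRF8-FOXF1 (chr16:85956213-86544132; 0.73 and 1.12), on the other side of the forkhead cluster with FOXF1, a factor of lung mesenchyme, were the highest. VRK1-BCL11B (chr14:97421184-99635623; -0.98 and -0.70), beside a factor of T cells and neurons, and IRX1-ADAMTS16, beside an Iroquois homeobox gene, were the lowest. In deserts of 500 to 1000 kb the difference had the other sign, with a median of -0.13 for 53 of these and -0.01 for 288 others. In those of 1000 to 2000 kb the median was -0.29 for 28 and -0.41 for 163 others, and at 2000 kb or more 0.08 for 8 and -0.44 for 66 others. Deserts beside none of the 4 lists numbered 359, of which 155 were above 0 and 180 below, with medians of -0.07 and -0.17. A desert with a gene of 2 lists, such as SEMA3C-HGF, counts in both.

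**Figure D5:**
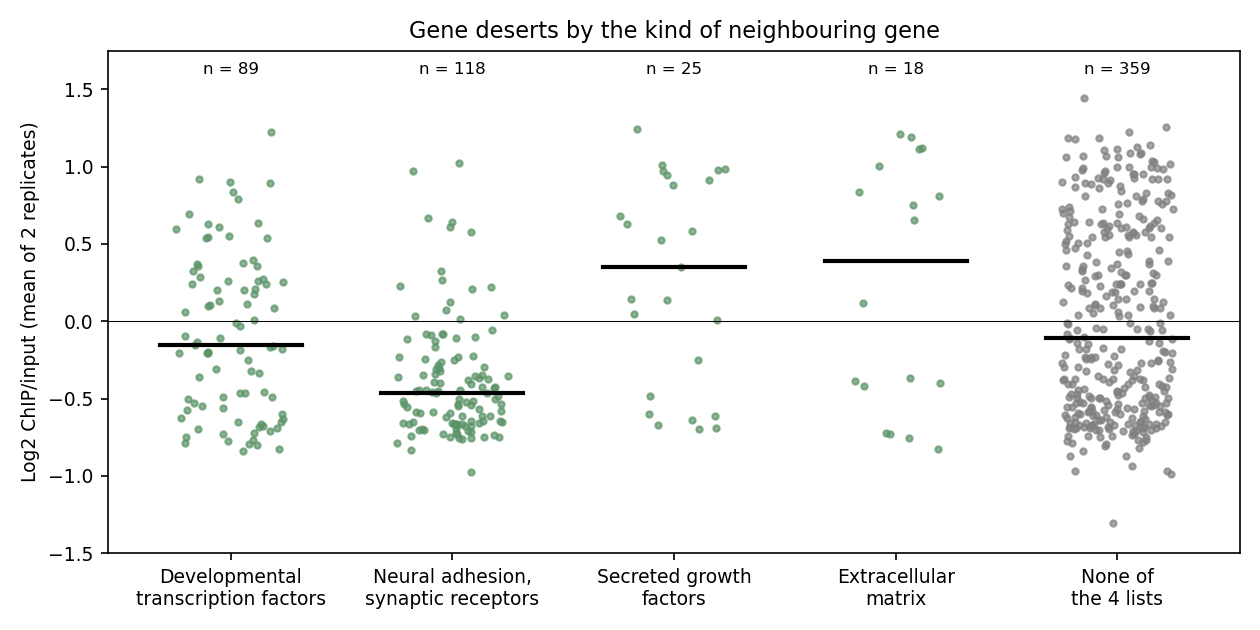
Log2 ratio of ChIP over input (mean of 2 replicates) of gene deserts with a neighbouring gene in each of 4 lists, and with none, 1 point per desert with a bar at the median. The medians were -0.15, -0.46, 0.35 and 0.39 from left to right for the 4 lists and -0.11 for deserts beside none of them.

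Most deserts held noncoding RNA genes. At least 1 long noncoding RNA (lncRNA) gene lay in 591 of 606 deserts, with a median of 5 a desert and 30.5% of assayed bases within their spans. The 15 deserts with none had a median log2 ratio of -0.54. Where the lncRNA part and the remainder of a desert could be compared (587 deserts), the lncRNA part was higher in both replicates in 235 (40%) and lower in both in 248 (42.2%), and in intervals of 100 to 500 kb these shares were 36.3% and 40.1%. The part of a desert under an lncRNA gene thus did not differ from the remainder in a common direction. Deserts with more of their length in lncRNA genes had somewhat higher values (Spearman rho of 0.19 over 606 deserts). MicroRNA genes were found in 277 deserts, 467 in all, and 42 of these lay in RTL1-DIO3, in an imprinted region of chromosome 14 (picked for this count).

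Base composition, place on the chromosome and the share of bases assayed moved with the values. Deserts had a median GC content of 37.8%, against 40.2% for 500-kb windows. The median log2 ratio was -0.35 and -0.54 in replicates 1 and 2 in the 124 deserts under 36% GC, -0.19 and -0.31 in the 191 of 36 to 38%, 0.12 and 0.01 in the 131 of 38 to 40%, -0.06 and 0.07 in the 130 of 40 to 45%, and -0.18 and 0.09 in the 30 of 45% or more. In the same GC classes the windows had medians of -0.53, -0.39, -0.36, -0.37 and -0.51 (mean of replicates). The Spearman rho with GC was 0.21 over deserts and -0.09 over windows. The 41 deserts within 5 Mb of a chromosome end had medians of -0.69 and -0.42, where windows there had -0.66 (mean of replicates), and the 83 deserts 10 to 20 Mb from an end had 0.00 and -0.01, where windows had -0.37. The percent of a desert's bases in blocks, which had a median of 98.3%, rose with the log2 ratio (Spearman rho of 0.48). The part of GC, position and assayed share in the level of a desert was not tested. By chromosome, the median desert was above the median 500-kb window on 19 of 22 autosomes, and on 18 in both replicates taken alone. It was highest on chromosome 12 (0.46 and 0.24 over 26 deserts), where windows had -0.37 and -0.42, and lowest, by the mean of both replicates, on chromosome 18 (-0.51 and -0.55 over 22 deserts), where windows had -0.42 and -0.46.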

How the data were processed

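Crosslinked, sheared IMR90 chromatin was precipitated for macroH2A1. For sequence handling, the submitters' processing notes list CASAVA 1.7 and hg19. The aligner, the segmentation program and duplicate handling were not given in the sources used here. The 2 ChIP libraries had separate deposited segments (46951 and 25583). For every segment the authors gave 2 values, read here as a log2 ratio to input and a −log10 p-value. The reading as −log10 p was inferred from the values and the segment format, not stated. The log base of the ratio was also inferred: 2 raised to the values averaged 1.01 and 0.995. Inputs entered only through that ratio, and depth is unknown.

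Only bases in blocks of both files were used. Neighbours were 20098 protein-coding spans of GENCODE release 44 on GRCh37. Means, covered shares and differences were computed with Python 3.11.15, numpy 2.4.6 and pandas 2.3.3. The means, the covered shares and the finding of intervals were checked on simulated data, and the differences were not. The exact sign-flip test over 2 replicates was the only test. The deserts and the 4 gene lists were chosen with earlier results of these data known, and all listed genes but 2 of 67 matrix genes were found on the autosomes. Named deserts were the 10 longest, the 8 highest and 8 lowest, the 5 with the largest replicate difference, the 3 most uneven, the 3 on each side of the length limit, and the 2 highest and 2 lowest per list. No sequence was printed from chromosome 8. Alternatives changed the replicate, the length and block limits, the neighbours, the thresholds and the edges.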

Additional observations from a re-analysis of the deposited data

How the results depend on the processing

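The level above the rest of the autosomes and below shorter intervals kept its sign in each replicate alone (0.20 to 0.30, and -0.38 to -0.28). With deserts of 1000 kb or more (265), the values were a median of -0.41, a count above 0 of 72, differences of 0.12 and -0.42, a covered share of 22.2% and a middle minus edge of -0.0357. The median for neighbouring developmental factor genes minus others was then 0.19. With lncRNA genes counted as neighbours too, 230 deserts were left, with a median of -0.53, a count of 42, differences of 0.0031 and -0.40 and a covered share of 16.0%: these deserts lay at the level of the rest of the autosomes. The covered share was 29.5% to 33.8% in single replicates, 23.4% with whole segments and their gaps and 17.6% for segments over 0.5 with −log10 p of at least 5. The median was -0.15 weighted by length. The count over 0.5 was 120.

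Length classes and a limit of 97% of bases in blocks were chosen after seeing the data. With 97% (489 deserts) the median was -0.10 and the covered share 30.7%. Between 500 and 1000 kb the median difference turned to -0.12 beside developmental factors and -0.36 beside matrix genes, and at 1000 kb or more it turned to -0.21 beside growth factors. The cause was not tested. No value is given for matrix genes with lncRNA neighbours, as no desert was left beside them. Of the 44 deserts named by the rule, 2 with opposite signs between replicates changed sign in single replicates: SEL1L-FLRT2 was 0.04 and was -0.05 without replicate 1, and NUDT12-EFNA5 was -0.10 and was 0.02 without replicate 2. With whole segments 1 of the 44 moved by more than its replicate SD, and without the 50 kb next to each gene 5 did, and under these 2 alternatives none changed sign. No paired analysis was possible because the inputs have no file of their own. Depth is unknown, so replicate spread is the only error.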
